A study of Mus musculus with 20 samples.

Results

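Mouse serum small RNA libraries were read for 7 miRNA hairpins of the imprinted Dlk1-Dio3 region on chromosome 12: mmu-mir-770, mmu-mir-673, mmu-mir-493, mmu-mir-337, mmu-mir-540, mmu-mir-665 and mmu-mir-370. All rows of the deposited count table whose precursor is one of these 7 were taken, which gave 14 mature arms, 5p and 3p of each hairpin, of 1915 mature names and 7 of 1193 precursors in the table. The serum came from female Ames dwarf mice and normal mice of the same heterogeneous background, with the strain given as Ames dwarf for both. The groups were old dwarf (21 to 22 months), young dwarf (5 to 6 months), old normal (21 to 22 months) and young normal (5 to 6 months), with 5 samples each and 20 libraries in all. No treatment is given for any group, the allele is not named in the labels, and the labels do not say whether each sample is a separate mouse. The p-values below therefore measure the spread between samples, which may be technical.

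The Dlk1-Dio3 region is an imprinted domain in which the maternal chromosome makes long non-coding RNAs, Meg3, Rian and Mirg among them, that carry many miRNAs and small nucleolar RNAs. The paternal chromosome makes the protein-coding genes Dlk1, Rtl1 and Dio3. Each miRNA hairpin is cut by Drosha and Dicer, and either arm can be loaded into an Argonaute protein, where its seed, bases 2 to 8, pairs with target mRNAs. MiRNAs of the region are known for high levels in embryo, placenta and brain, and serum holds miRNAs released from many tissues and from blood cells. Ames dwarf mice lack several pituitary hormones, growth hormone among them, and live longer than their normal littermates.

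Most hairpins of the set lay outside the Meg3 and Rian genes themselves, in the stretch downstream of Meg3. On GRCm38, by GENCODE M21, all 7 hairpins lay on the plus strand of chromosome 12. Mir770, at chr12:109563692-109563785, overlapped an annotated exon of Meg3, and Mir370, at chr12:109618258-109618336, lay in an intron of Rian. The other 5 lay between genes, downstream of Meg3. Mir673 (chr12:109571990-109572080) began 264 bases past the annotated end of Meg3, Mir493 (chr12:109580233-109580315) 8507 bases past it, Mir337 (chr12:109585789-109585885) 14063, Mir540 (chr12:109586080-109586146) 14354 and Mir665 (chr12:109586314-109586407) 14588. Mir337 shares its place with Mir3544 on the opposite strand, for which both arms had 0 reads.

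The arms with the most reads are shown here as their RefSeq mature sequences (GRCm38.p6), because the results below turn on them. Capitals mark the seed.
miR-673-5p: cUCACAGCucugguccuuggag
miR-540-3p: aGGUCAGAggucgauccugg
miR-540-5p: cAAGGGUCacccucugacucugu
miR-337-5p: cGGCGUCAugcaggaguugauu
miR-337-3p: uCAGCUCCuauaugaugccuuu
miR-370-3p: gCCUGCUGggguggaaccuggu

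The 3 hairpins that carry the tested arms are shown next, with the 5p and 3p arms in capitals (RefSeq, GRCm38.p6, plus strand).
Mir673: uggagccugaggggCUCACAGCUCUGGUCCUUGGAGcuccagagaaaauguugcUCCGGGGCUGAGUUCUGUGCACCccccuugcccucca
Mir337: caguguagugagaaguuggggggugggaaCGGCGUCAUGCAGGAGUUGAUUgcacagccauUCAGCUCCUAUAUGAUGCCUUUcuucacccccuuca
Mir540: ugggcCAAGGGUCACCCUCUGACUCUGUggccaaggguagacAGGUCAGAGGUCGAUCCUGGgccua

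All 14 arms matched a RefSeq entry, and they had 14 distinct seeds, so no pair of arms in the set shared one. Among them, 3 seeds also occur in another mouse miRNA. MiR-540-3p shares its seed with miR-6915-5p, miR-673-5p with miR-6985-3p, and miR-370-5p with miR-1193-3p, which is itself a miRNA of the Mirg stretch. The mature arms are 19 to 26 bases long, with a GC content of 40.9% to 72.7%. In the authors' deposited table of hairpins found by miRDeep2, the consensus read of each of the 5 hairpins matched there began at the same base as the RefSeq arm. In the authors' deposited table the miR-540-3p consensus ran 2 bases past the RefSeq 3′ end, and its seed is the same.
miR-540-3p consensus: aGGUCAGAggucgauccugggc

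Read depth set which arms could be compared. The 20 libraries held 1343137 to 4710263 miRNA reads each, and the 14 arms together had 884 reads, 0.00182% of the total. At least 1 read was found for 13 arms. Only 4 arms, miR-673-5p with 257 reads, miR-540-3p with 177, miR-540-5p with 141 and miR-337-5p with 121, passed the filter on low counts and were tested, and they held 78.7% of the reads. An arm passed by being above a minimum in at least 5 libraries, which is easier for an arm that is high in some group, so these 4 do not stand for all 14. In a single library the limit that a count of 0 allows, 3 reads, is 0.637 to 2.23 CPM (reads scaled to a common library size), depending on depth.

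The other 10 arms were too sparse to test. MiR-337-3p had 73 reads, miR-370-3p 49, miR-673-3p 24, miR-665-3p 19 and miR-493-5p 14. MiR-770-5p and miR-493-3p had 3 each, miR-370-5p had 2, miR-770-3p had 1 and miR-665-5p had 0. Reads did not follow position along the chromosome. Mir540 and Mir665 are 167 bases apart, yet Mir540 had 318 reads over both arms and Mir665 had 19. Mir770, the hairpin inside Meg3, had 4 reads, and Mir370, the one inside Rian, had 51.

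**Figure D1:**
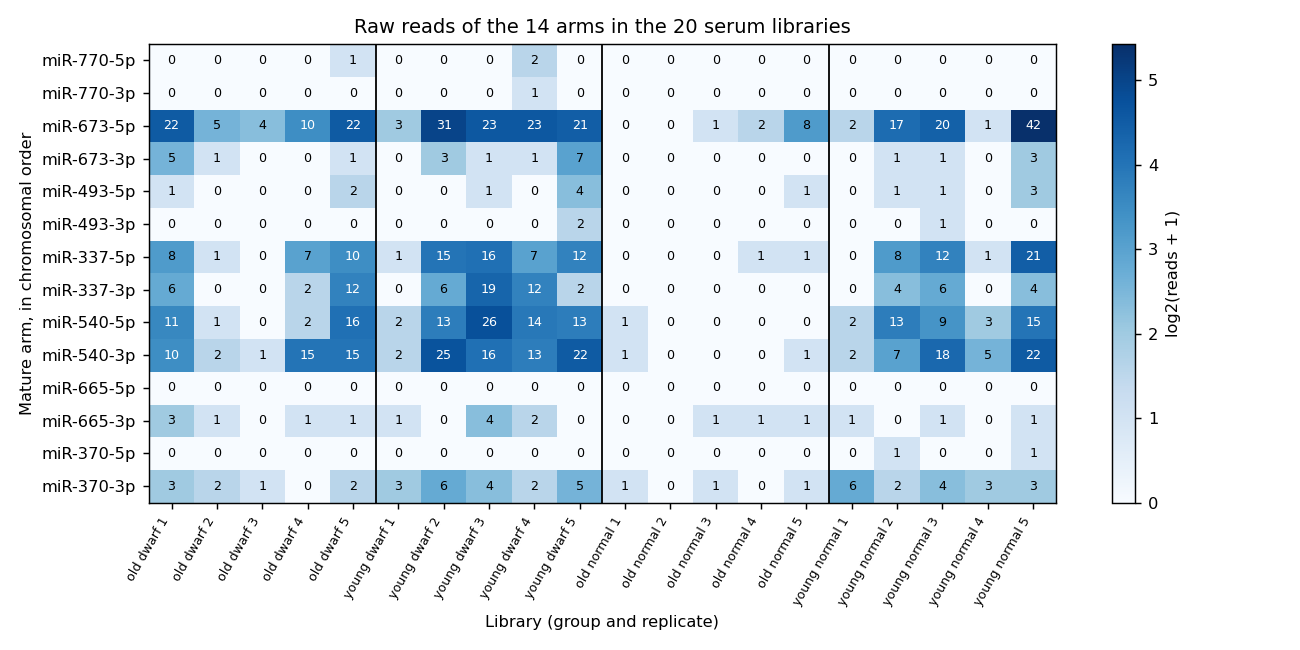
Raw reads of the 14 arms (rows, in chromosomal order) in the 20 serum libraries (columns, by group and replicate), shaded by log2(reads + 1), with the read count printed in each cell. The 5 old normal libraries hold between 0 and 13 reads of the whole set, and 1 of them holds none.

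The set was nearly absent from old normal serum. Fewer source cells and less RNA released per cell cannot be told apart here, and neither was tested as the cause. Summed over the 14 arms, old dwarf libraries had 37.1, 4.66, 3.38, 25.2 and 40.7 CPM, and young dwarf libraries 5.69, 31.8, 40.7, 29.5 and 34.3 CPM. Old normal libraries had 1.51, 0, 1.19, 2.18 and 4.46 CPM, and young normal libraries 6.31, 22.6, 22.5, 3.66 and 40.6 CPM. CPM here and below uses library sizes after TMM scaling. The 20 libraries fell into a low set of 10, from 0 to 6.31 CPM, and a high set of 10, from 22.5 to 40.7 CPM, with none between. The low set held 2 old dwarf, 1 young dwarf, 5 old normal and 2 young normal libraries. The highest old normal library overlapped the low libraries of old dwarf serum and of young normal serum.

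MiR-673-5p, the leading arm of the hairpin just downstream of Meg3, was the most read. Old dwarf libraries had 11.8, 1.79, 2.25, 6.82 and 10.9 CPM and young dwarf libraries 1.42, 9.95, 8.50, 8.81 and 8.18 CPM. Old normal libraries had 0, 0, 0.397, 1.09 and 2.75 CPM and young normal libraries 0.971, 7.12, 6.16, 0.281 and 14.8 CPM. Old dwarf replicates 2 and 3 were low within their group and overlapped the old normal range, which 2 young normal libraries also did. Group means were 6.73 ± 4.70 CPM in old dwarf, 7.37 ± 3.39 in young dwarf, 0.847 ± 1.15 in old normal and 5.87 ± 5.85 in young normal serum (SD, n = 5 each).

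Among the tested arms, miR-540-3p gave the cleanest separation after TMM scaling. Old dwarf libraries had 5.38, 0.717, 0.563, 10.2 and 7.45 CPM and young dwarf libraries 0.949, 8.02, 5.91, 4.98 and 8.57 CPM. Old normal libraries had 0.503, 0, 0, 0 and 0.343 CPM and young normal libraries 0.971, 2.93, 5.54, 1.41 and 7.76 CPM. On this scale each old dwarf library and each young normal library was above each old normal library, so the groups did not overlap in either comparison. Of all tested miRNAs 26.4% and 15.6% were called there by adjusted p, which is another measure. The share of all miRNAs whose groups do not overlap was not counted. The margin is small, since 0.563 CPM in old dwarf replicate 3 and 0.503 CPM in old normal replicate 1 are 1 read each. Old dwarf replicate 3 has the larger library total (2543180 against 2462719 reads). By library totals without TMM scaling the order of these libraries is reversed, and old dwarf and old normal serum overlap. Group means were 4.87 ± 4.23 CPM in old dwarf, 5.69 ± 3.03 in young dwarf, 0.169 ± 0.238 in old normal and 3.72 ± 2.88 in young normal serum (SD, n = 5 each).

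The opposite arm of the same hairpin, miR-540-5p, had 1 read in all of old normal serum. Old dwarf libraries had 5.92, 0.358, 0, 1.36 and 7.95 CPM and young dwarf libraries 0.949, 4.17, 9.61, 5.36 and 5.07 CPM. Old normal libraries had 0.503, 0, 0, 0 and 0 CPM and young normal libraries 0.971, 5.44, 2.77, 0.844 and 5.29 CPM. Old normal and young normal libraries did not overlap, while old dwarf replicates 2 and 3 fell within the old normal range. How many of all miRNAs separate in this way was not counted. Group means were 3.12 ± 3.59 CPM in old dwarf, 5.03 ± 3.10 in young dwarf, 0.101 ± 0.225 in old normal and 3.06 ± 2.24 in young normal serum (SD, n = 5 each).

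MiR-337-5p was found in 2 of the 5 old normal libraries, with 1 read in each. Old dwarf libraries had 4.31, 0.358, 0, 4.78 and 4.97 CPM and young dwarf libraries 0.474, 4.81, 5.91, 2.68 and 4.68 CPM. Old normal libraries had 0, 0, 0, 0.545 and 0.343 CPM and young normal libraries 0, 3.35, 3.69, 0.281 and 7.40 CPM. The groups overlapped through old dwarf replicates 2 and 3 and young normal replicates 1 and 4. Group means were 2.88 ± 2.48 CPM in old dwarf, 3.71 ± 2.15 in young dwarf, 0.178 ± 0.253 in old normal and 2.95 ± 3.02 in young normal serum (SD, n = 5 each). By mean, young dwarf serum was the highest for each of the 4 arms and old normal serum the lowest, and the means of the other 3 groups differed by less than the young dwarf SD.

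**Figure D2:**
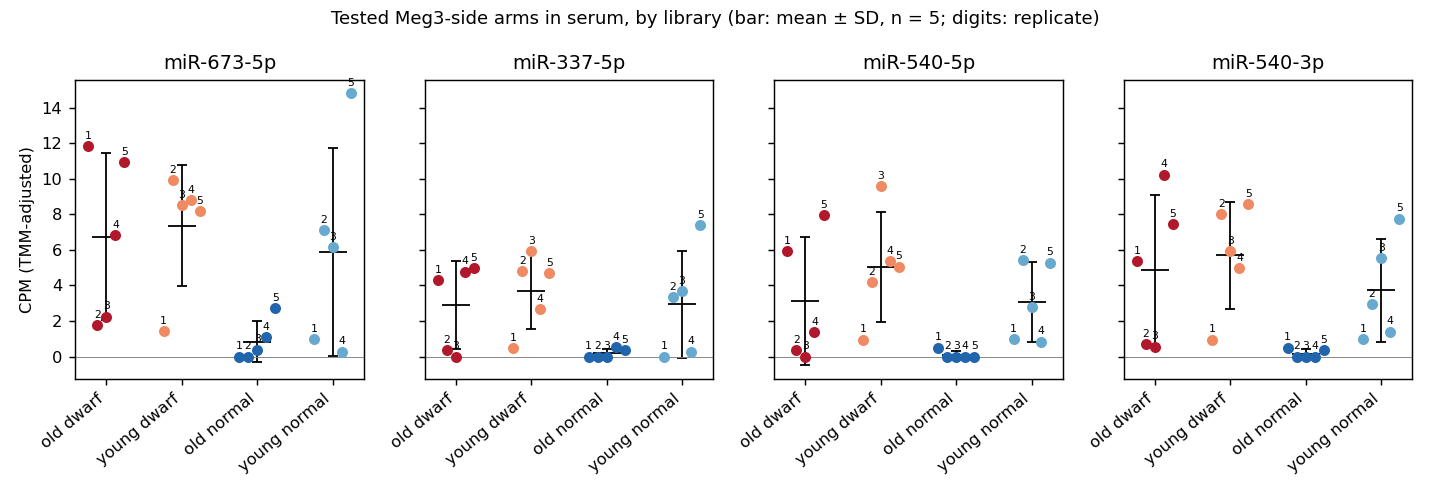
CPM (vertical axis, TMM-adjusted) of the 4 tested arms in old dwarf, young dwarf, old normal and young normal libraries, a point per library with its replicate number, and a bar for the mean ± SD of 5. Old dwarf replicates 2 and 3, young dwarf replicate 1 and young normal replicates 1 and 4 lie near the old normal libraries in every panel.

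In old dwarf against old normal serum, all 4 tested arms rose by edgeR's quasi-likelihood test, with Benjamini-Hochberg adjustment over all 360 miRNAs tested. The log2 fold change was 4.40 ± 1.25 for miR-540-5p (SE, adjusted p = 0.0147) and 4.30 ± 1.03 for miR-540-3p (adjusted p = 0.0072). It was 3.54 ± 1.25 for miR-337-5p (adjusted p = 0.0442) and 2.70 ± 0.93 for miR-673-5p (adjusted p = 0.0401). In this comparison 26.4% of the tested miRNAs changed, 16.1% higher and 10.3% lower, and the median log2 fold change was 3.92 over the 4 arms and -0.06 over all 360. Fitted folds rest on few old normal reads. Counted over the group, miR-540-3p had 43 reads in old dwarf and 2 in old normal serum, a ratio of 22.5 with an exact 95% counting interval of 5.87 to 192. MiR-540-5p had 30 reads against 1, a ratio of 31.4 (5.22 to 1282), and miR-337-5p 26 against 2, a ratio of 13.6 (3.41 to 118). The call count depended on single libraries. Leaving out old dwarf replicate 5 left 1 arm called, and leaving out any of old dwarf replicates 1 and 4, young dwarf replicate 2 and old normal replicates 1, 2 and 3 left 2. Over all miRNAs the 95 calls became 143 when old dwarf replicate 2 was left out, 53 when replicate 1 of that group was, 55 for its replicate 4 and 51 for its replicate 5.

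The sparse arms had 0 to 3 reads each in old normal serum. MiR-337-3p had 20 reads in old dwarf serum, from 3 of its 5 libraries, and 0 in old normal serum. This is at least 6.98-fold higher against a floor of 3 reads over the group. At the exact 95% lower limit, which also covers the counting error of the 20 reads, it is 5.17-fold. MiR-673-3p had 7 reads in old dwarf and 0 in old normal serum, at least 2.44-fold higher against the same floor, or 1.51-fold at the exact lower limit. MiR-370-3p, from the hairpin inside Rian, had 8 reads in old dwarf and 3 in old normal serum, a ratio of 2.79 with an interval of 0.670 to 16.3 that includes 1. MiR-665-3p had 6 against 3 reads, a ratio of 2.09 (0.447 to 12.9), and miR-493-5p had 3 against 1, a ratio of 3.14 (0.252 to 165). These intervals cover counting error only, amplified reads are not independent molecules, and none of these arms passed the filter. In a fit with no filter, miR-337-3p passed in this comparison (edgeR adjusted p = 0.0186) and miR-673-3p did not (adjusted p = 0.101).

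In old normal against young normal serum, 3 of the 4 tested arms were called lower. The log2 fold change was -4.37 ± 1.23 for miR-540-5p (SE, edgeR adjusted p = 0.0198), -3.97 ± 1.03 for miR-540-3p (adjusted p = 0.0159) and -3.63 ± 1.21 for miR-337-5p (adjusted p = 0.0475). MiR-673-5p, at -2.52 ± 0.92, missed the threshold with an adjusted p of 0.0644, but was called with DESeq2 (adjusted p = 0.0191), with library totals (0.0357) and without a filter (0.0299). In this comparison 15.6% of the tested miRNAs changed, 10.6% lower and 5% higher, and the median was -3.80 over the 4 arms and 0.00 over all 360. This comparison and the one before it share the 5 old normal libraries, so they are not independent of each other. MiR-337-3p had 0 reads in old normal and 14 in young normal serum, the latter from 3 of its 5 libraries. Against the floor this is at least 3.44-fold lower, which leaves out the counting error of the 14 reads. With that error the ratio is up to 0.409 at the exact 95% upper limit. MiR-370-3p had 3 against 18 reads, a ratio of 0.226 (0.0427 to 0.775), miR-493-5p had 1 against 5, a ratio of 0.272 (0.00574 to 2.43), and miR-665-3p had 3 against 3, a ratio of 1.36 (0.182 to 10.1). MiR-673-3p had 0 against 5, a ratio of up to 1.48. None of these arms was called in the fit with no filter, where miR-337-3p had an adjusted p of 0.0896. Leaving out old normal replicate 3 or young normal replicate 5 left 1 arm called. Over all miRNAs the 56 calls became 123 without young normal replicate 1, 37 without old normal replicate 1 or young normal replicate 3, and 29 without young normal replicate 5.

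Young dwarf against young normal serum gave no call for these arms. The log2 fold change was 0.72 ± 0.73 for miR-540-5p (SE, edgeR adjusted p = 0.768), 0.60 ± 0.67 for miR-540-3p (adjusted p = 0.792), 0.33 ± 0.80 for miR-337-5p and 0.33 ± 0.75 for miR-673-5p (adjusted p = 0.940 for both). None of the 4 was called by edgeR or DESeq2 or had an unadjusted p under 0.05, and 0% of all miRNAs were called, although 28 had an unadjusted p under 0.05 and DESeq2 called 6. The pooled reads of miR-337-3p were 39 in young dwarf and 14 in young normal serum, a ratio of 2.99 with a counting interval of 1.59 to 5.97. In the fit with no filter it was not called (adjusted p = 0.639).

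Old dwarf against young dwarf serum likewise gave no call. The log2 fold change was -0.70 ± 0.76 for miR-540-5p, -0.42 ± 0.84 for miR-337-5p, -0.28 ± 0.68 for miR-540-3p and -0.15 ± 0.76 for miR-673-5p (SE), each with an edgeR adjusted p of 0.997, and DESeq2 called 0 of the 4. In this comparison 0.556% of the tested miRNAs changed. The age effect in dwarf minus the age effect in normal mice was tested directly as an interaction. It was 3.69 ± 1.26 on the log2 scale for miR-540-3p (SE, adjusted p = 0.176), 3.67 ± 1.49 for miR-540-5p (adjusted p = 0.214), 3.21 ± 1.5 for miR-337-5p (adjusted p = 0.305) and 2.37 ± 1.19 for miR-673-5p (adjusted p = 0.318). In edgeR 3 of the 4 had an unadjusted p under 0.05, as did 57 of all 360 miRNAs. After adjustment 0 of the 4 were called, as against 0.556% of all miRNAs (2 of 360). In DESeq2 all 4 had an unadjusted p under 0.05 and 0 were called, while 20 of all miRNAs were called. An age effect that differs between the genotypes was not shown for these arms at the adjusted threshold.

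**Figure D3:**
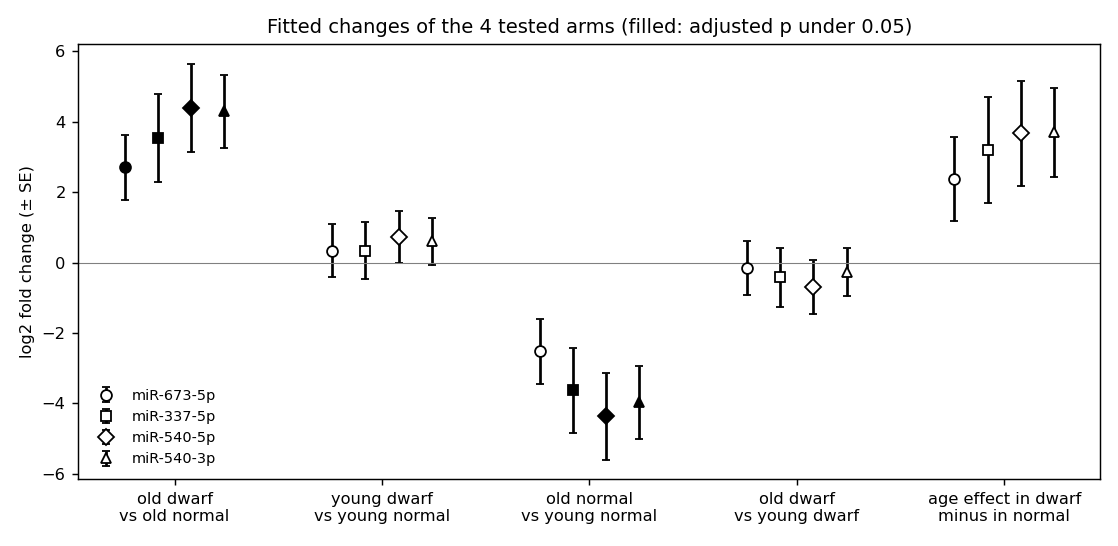
Log2 fold change with its SE (vertical axis) of the 4 tested arms in 5 comparisons, from the fit over 20 libraries, filled where the adjusted p is under 0.05. For old dwarf against old normal serum the 4 arms lie between 2.70 and 4.40, for old normal against young normal serum between -4.37 and -2.52, and in the comparisons without old normal libraries between -0.70 and 0.72.

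An index used for red cell RNA, a ratio of 2 miRNAs, moved with the same groups. The haemolysis index sets reads of miR-451a, abundant in red cells, over those of miR-23a-3p, which is not enriched in them, on a log2 scale. It was 5.38 ± 0.44 in old dwarf and 4.30 ± 0.70 in old normal serum (SD, n = 5 each). The difference was 1.08 by a 2-sided exact permutation test (p = 0.00794, adjusted over 4 comparisons 0.0317). Old normal serum was also lower than young normal serum, at 4.30 ± 0.70 against 5.45 ± 0.61 (exact permutation p = 0.0238, adjusted 0.0476, n = 5 each). With the index in the model, none of the 4 arms was called by edgeR in any comparison, and 2 had an unadjusted p under 0.05 in each of these 2 comparisons. The loss was not limited to the 4 arms, since over all 360 miRNAs 0 were then called in old dwarf against old normal serum, against 95 without the index, and 1 in old normal against young normal serum, against 56. MiR-540-3p then had a log2 fold change of 3.22 between old dwarf and old normal serum (edgeR adjusted p = 0.142) and of -2.89 between old normal and young normal serum (adjusted p = 0.259). The libraries low for the 14 arms were old dwarf replicates 2 and 3, which had the 2 lowest indices of their group (4.90 and 5.20), young dwarf replicate 1 (5.11, in a group from 5.08 to 6.03), and young normal replicates 1 and 4. Replicate 1 of young normal serum had the lowest index of its group (4.66), and replicate 4 the second highest (5.71). The part of the index in these results was not tested beyond that fit.

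Markers of blood cells and tissues were compared as whole lists, each precursor by its most read arm. The 3 lymphocyte markers, miR-150-5p, miR-342-3p and miR-155-5p, summed to 667 to 1444 CPM in old dwarf and 1580 to 4963 CPM in old normal serum. Against old normal serum all 3 fell in old dwarf serum, and against young normal serum all 3 rose in old normal serum, where the young normal sums were 611 to 1887 CPM. The 3 erythroid markers summed to 244387 to 497548 CPM in old dwarf and 343872 to 517641 CPM in old normal serum, with none called. In old normal against young normal serum 1 of 3 was called lower. Their sum was 182506 to 446938 CPM in young normal serum, so the summed list was not lower in old normal serum as the index was. None of the 4 liver, 6 tested muscle, 3 myeloid and platelet or 2 tested neural and endocrine markers was called in any pairwise comparison. When every arm of the myeloid and platelet list was counted, 1 of 6 tested arms was called lower in old dwarf against old normal serum. Only miR-7b-5p, of the neural and endocrine list, was at 0 in all libraries. The part of these cell types in the results on the arms was not tested.

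The neighbouring stretches of the locus showed the same libraries as low. MiR-127-3p, which pairs with the Rtl1 transcript that lies opposite it, led the Rtl1-antisense list with 23052 reads. That list summed to 2003, 302, 217, 1680 and 2398 CPM in old dwarf libraries and to 68.4, 91.4, 61.6, 127 and 93.7 CPM in old normal libraries. In old dwarf against old normal serum all 8 of its tested arms were higher, and 7 were called. Their median log2 fold change was 3.74. All 18 tested arms of the Mirg list were higher too, with a median of 3.56, and 14 were called. Of 77 arms on the Mirg list 18 passed the filter, and of 13 on the Rtl1-antisense list 8 did. Passing is easier for an arm that is high in some group, so the tested arms do not stand for the whole lists. Of all tested miRNAs 16.1% were called higher in this comparison. In old normal against young normal serum all 8 and all 18 were lower. Of these 7 and 11 were called, as against 10.6% of all tested miRNAs called lower. The only other tested arm of the Rian list, miR-341-3p, had 588 reads, more than any of the 14 arms. It averaged 17.2 ± 13.1 CPM in old dwarf, 18.5 ± 8.72 in young dwarf, 2.38 ± 1.49 in old normal and 11.2 ± 8.11 in young normal serum (SD, n = 5 each), and rose by 2.90 ± 0.70 on the log2 scale (SE, edgeR adjusted p = 0.0076) in old dwarf against old normal serum. MiR-541-5p was the most read arm of the Mirg list, with 6420 reads, and rose by 4.63 ± 0.94 in the same comparison (adjusted p = 0.003). Both lists had far more reads than the 14 arms, and the 10 libraries low for the 14 arms were also the 10 lowest for each list.

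**Figure D4:**
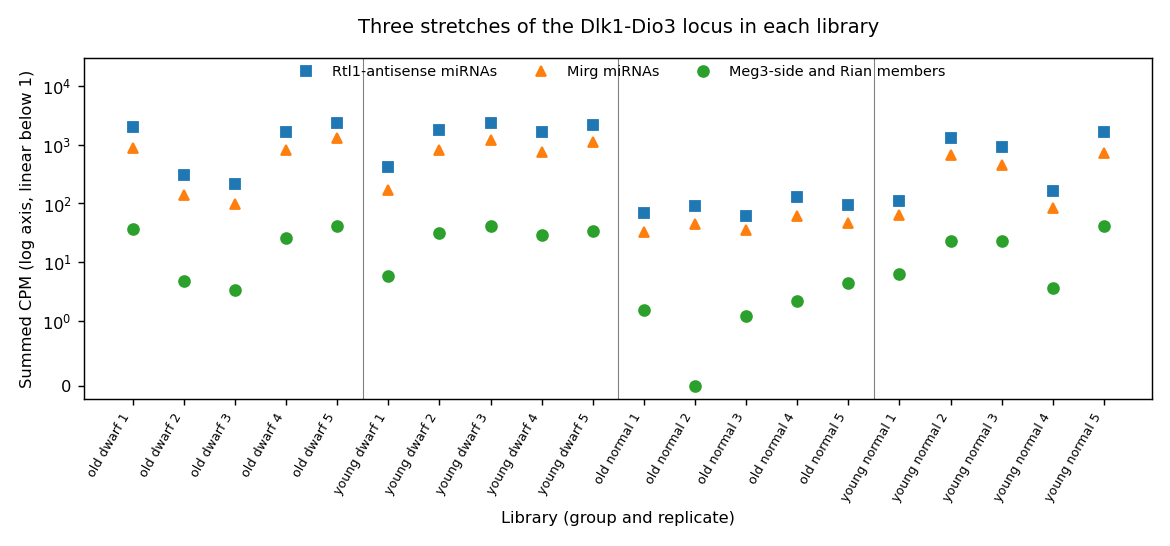
CPM summed over the 14 arms (circles), the Rtl1-antisense miRNAs (squares) and the Mirg miRNAs (triangles) in each of the 20 libraries, by group and replicate, on a log axis that is linear below 1. The 3 series are low in the 5 old normal libraries, old dwarf replicates 2 and 3, young dwarf replicate 1 and young normal replicates 1 and 4.

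The 5 miRNAs whose pattern was most like the 4 tested arms were other miRNAs of the locus, but the pattern was not limited to it. Likeness was Pearson's r, over the 20 libraries, between a miRNA's log2 CPM and the mean log2 CPM of the 4 arms, among 356 other tested miRNAs, whose median r was -0.03. The 5 highest were miR-136-3p with 0.977, miR-154-5p with 0.977, miR-434-5p with 0.976, miR-369-5p with 0.974 and miR-381-3p with 0.972. MiR-199a-3p, which is on none of the Dlk1-Dio3 lists, had rank 8 with 0.963. Since the libraries form a low and a high set, r was also taken inside each. Within the 10 low libraries r was 0.521 to 0.870 for the 5, and within the 10 high libraries 0.607 to 0.737. Between the 4 arms themselves r ran from 0.843 to 0.939 over the 20 libraries, which share their depth and scaling.

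The use of the arms differed between hairpins. Of the 281 reads of mir-673, 91.5% came from the 5p arm (exact 95% interval 87.6% to 94.5%), and of the 318 reads of mir-540, 44.3% did (38.8% to 49.99%). These intervals and those below pool libraries and cover counting error only, not the spread between libraries. For mir-540, old dwarf replicate 4 had 2 reads of the 5p arm and 15 of the 3p arm, and young dwarf replicate 3 had 26 and 16. For mir-337, young dwarf replicate 5 had 12 and 2, and young dwarf replicate 4 had 7 and 12. For mir-337 the 5p arm held 62.4% of 194 reads (55.1% to 69.2%), and it held 56.5% in old dwarf, 56.7% in young dwarf and 75.0% in young normal serum. The exact intervals of these 3 shares are 41.1% to 71.1%, 45.8% to 67.1% and 61.6% to 85.6%. They overlap, which does not show that the shares are equal, and the difference between groups was not tested. In old normal serum mir-337 had 2 reads and mir-540 had 3, too few for a share. All 19 reads of mir-665 came from the 3p arm, which allows a 5p share of up to 17.6%.

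In the authors' deposited table, miRDeep2 gave mir-540 a score of 167.1, rank 144 of 549 hairpins. The authors' deposited table scored mir-370 and mir-665 at 5.3 each and mir-337 at 2.0. For mir-673 the authors' deposited table held 2 overlapping candidates over the same reads, scored -1.9 and -2.2, neither with a significant folding test. The scores rate how well the reads fit a Dicer product and are not levels.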

How the data were processed

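TruSeq small RNA libraries were made from column-purified serum RNA, per the labels' protocols. The submitters' processing notes name Bowtie 0.12.8, bedtools, edgeR and GRCm38 (mm10) but give them no role. The deposited values tested were raw read counts, 1 column per sample and 1 row per mature and precursor pair, laid out as a miRDeep2 quantifier table, per the file headers. The authors also deposited RPM values, used only as a check (largest difference from count over column sum 0.005). The score is the authors' deposited miRDeep2 score per hairpin, over pooled samples. No sample column was left unused (0 columns).

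For each of 1915 names the row with the highest total was used. The 7 precursors have 1 row per arm. Counts were tested with edgeR 4.0.16 (limma 3.58.1, R 4.3.3), quasi-likelihood, a coefficient per group over 20 libraries, TMM factors of 0.674 to 1.51, and the default filter by group (minimum count 10), which left 360 miRNAs. An adjusted p under 0.05 is called, and SE is the size of the log2 fold change divided by the root of F. Code was tested on simulated data. DESeq2 1.42.0, other scalings, no filter, summed precursor rows, a replicate block, the haemolysis index and leaving out each library were tried. Shared replicate numbers did not pair the libraries. The members, lists, tests and alternatives were chosen with earlier results of these data known. Each of the 14 arms is named. The 5 most alike miRNAs and the most read member of each neighbouring list were named by rule.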

Additional observations from a re-analysis of the deposited data

Results flagged for a closer look

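The 4 tested arms and the haemolysis index were checked in each of the 4 groups. Of these 20 sets of 5 libraries, 3 held a library far from the other 4. A rate of about 1 set in 20 holds for independent sets of normal values. Sparse arms read in the same libraries are not such sets, so the 3 are not set against that rate. MiR-540-3p in young dwarf replicate 1 was low at 0.84 on the log2 CPM scale, and miR-673-5p in the same library was low at 1.18. MiR-540-5p in old normal replicate 1 was high at 0.43, where that library held the only read of its group. With 0 reads in the other 4, a single read was enough for the flag.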

How the results depend on the processing

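For old dwarf against old normal and old normal against young normal serum, miR-540-3p kept its calls in each of the 20 fits that left out a library (adjusted p 0.0025 to 0.0195 and 0.0072 to 0.0471). MiR-540-5p kept them in 19 and 18 of 20, miR-337-5p in 11 and 8 of 20, and miR-673-5p was called in 12 and 3 of 20. Over these fits the arms called ranged from 1 to 4 in each of the 2 comparisons, and the other Dlk1-Dio3 miRNAs called from 17 to 27 (22 with all libraries) and from 12 to 24 (19 with all libraries, 12 without young normal replicate 5). Without a filter miR-337-3p was also called in old dwarf against old normal serum, which made 5 arms. In old normal against young normal serum DESeq2, library totals and no filter each called 4 arms. With the haemolysis index in the model 0 arms and 0 other Dlk1-Dio3 miRNAs were called in both; the cause was not tested. For the interaction, DESeq2 called 8 and the unfiltered fit 7 other Dlk1-Dio3 miRNAs, against 0. Leaving out a library turned the direction of uncalled values: in old dwarf against young dwarf serum miR-540-3p ran from -0.74 to 0.032, miR-673-5p from -0.47 to 0.11 and the index difference from -0.19 to 0.14, and in young dwarf against young normal serum the index difference ran from -0.25 to 0.16. Libraries that share a replicate number correlated over 0.1 in 9 of 20 pairs (range -0.68 to 0.81), and a library correlated best with its own number in 9 of 60 cases. With a replicate block 4 arms were called in old dwarf against old normal and 2 in old normal against young normal serum, where miR-337-5p had an adjusted p of 0.0785. Over all miRNAs, old normal against young normal serum gave 56 calls (18 higher, 38 lower), 106 with library totals (9 higher, 97 lower), 69 with upper-quartile factors (33 higher, 36 lower), 117 with DESeq2, 1 with the index and 29 to 123 with a library left out. Old dwarf against old normal serum gave 95, 0 with the index and 51 to 143 with a library left out. The interaction gave 2, 20 with DESeq2, 13 with no filter and 0 to 3 with a library left out. Library totals moved the median of all miRNAs to 0.23 in the first comparison and to -0.42 in the second, and the 4 arms kept their direction in both. Depth is a limit: 10 of 14 arms did not pass the filter, and a fold against 1 or 2 reads has a wide interval.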

Other observations

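The miRNA outside the Dlk1-Dio3 lists with the pattern most like the 4 tested arms was miR-199a-3p, eighth in rank with r = 0.963 over 20 libraries (chosen after its values were seen). Its counts equal those of miR-199b-3p in each library, so the reads of the 2 names cannot be told apart. Within the 10 low libraries its r was 0.695, and within the 10 high libraries 0.553.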
